A study of Mus musculus with 4 samples.

Results

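The nuclear genes of oxidative phosphorylation (OXPHOS) were examined for binding of PPARγ, a nuclear receptor for fatty acids and their derivatives that pairs with RXR on DNA, in mouse alveolar macrophages (AMs). The genes were chosen by symbol as the protein-coding genes beginning with Nduf, Uqcr, Cox4, Cox5, Cox6, Cox7, Cox8 or Atp5, together with Sdha, Sdhb, Sdhc, Sdhd, Cyc1 and Cycs. The symbols gave 98 genes, and 97 of them have a curated RefSeq transcription start site (TSS), out of 20923 protein-coding genes that have such a site. Ndufb4b has no curated start site and was left out. Besides subunits, the prefixes take in 8 Ndufaf assembly factors and the supercomplex factor Cox7a2l, and 88 of the 97 genes remain without those.

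AMs were sorted from bronchoalveolar lavage of 9-week-old wild-type (WT) C57BL/6J mice, and binding was mapped by HT-ChIPmentation, in which a transposase tags the immunoprecipitated chromatin while it is still on beads. The 2 ChIP libraries, named library 1 and library 2 after their replicate numbers, each had an input library that the authors used as control in peak calling. All mice were WT and untreated as far as the labels say, so there is 1 group, no comparison of conditions and no p-value. The labels do not say whether the libraries came from separate mice, and differences between them may be technical.

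OXPHOS couples the oxidation of NADH and succinate to the synthesis of ATP in the inner mitochondrial membrane. Complexes I and II pass electrons to ubiquinone, complex III passes them on to cytochrome c, complex IV reduces oxygen, and complex V, the ATP synthase, uses the proton gradient that complexes I, III and IV build. Most subunits are encoded in the nucleus and a few in mitochondrial DNA, and the nuclear genes are known to be controlled by the factors NRF1, GABP, ERRα and YY1 with the coactivators of the PGC-1 family. AMs take up and burn surfactant lipid, and PPARγ is known as a regulator of lipid handling in these cells.

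Library 1 held 83787 peaks and library 2 held 28535, with median fold enrichments over input of 4.44 and 5.07. In mm10 coordinates, merging peaks of the libraries that overlapped by at least 1 bp gave 20233 consensus regions with peaks of both. The cell type of the label was set beside marker genes, although a region near a gene does not show its expression. All 8 AM markers were the nearest gene of a region, beside 31.6% of all genes. A region covered a TSS of 6 of them, Siglecf, Itgax, Pparg, Mertk, Chil3 and Fabp4 (75%, beside 15.7% of all genes). Of 12 markers of epithelium, endothelium, lymphocytes and neutrophils, 3 (25%: Epcam, Pecam1 and Cd3d) were the nearest gene of a region, and none had a region over a TSS. The authors assume that RXRs control Siglecf and Pparg directly, so the AM markers are no independent check of cell type. The peak lists hold no read counts, so no value is weighed by depth. Each library's fold enrichment is relative to its own input and is read here against that library's median peak. A peak averages over all sorted cells, and binding in every cell cannot be told apart from binding in some of them.

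The sequences that the regions of these genes cover are shown first, as examples of recognition sites of the known OXPHOS regulators and of the PPAR motif. Most promoters of the set hold none of these sites, and the counts are given further on. The 5 promoters below lay under a consensus region over the TSS. Each line gives the 120 bases before the annotated start in RefSeq GRCm38.p6, 5′ to 3′ on the strand of the gene. Capitals mark a match to the NRF1 site CGCATGCG in Cycs and Atp5g2, to the ETS site CCGGAAGT that GABP binds in Uqcrh and Atp5h, and to the ERR site TCAAGGTCA in Atp5g3, on either strand.

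Cycs, chr6:50566570-50566689, minus strand: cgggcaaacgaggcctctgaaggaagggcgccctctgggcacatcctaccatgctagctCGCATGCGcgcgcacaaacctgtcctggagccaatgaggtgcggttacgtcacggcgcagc
Atp5g2, chr15:102671048-102671167, minus strand: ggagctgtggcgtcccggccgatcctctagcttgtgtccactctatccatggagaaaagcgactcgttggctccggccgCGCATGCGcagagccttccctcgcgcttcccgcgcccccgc
Uqcrh, chr4:116075071-116075190, minus strand: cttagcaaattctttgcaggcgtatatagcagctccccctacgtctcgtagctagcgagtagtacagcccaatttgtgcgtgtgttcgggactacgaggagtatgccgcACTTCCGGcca
Atp5h, chr11:115419920-115420039, minus strand: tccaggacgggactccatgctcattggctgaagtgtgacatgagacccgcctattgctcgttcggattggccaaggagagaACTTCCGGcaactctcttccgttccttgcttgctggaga
Atp5g3, chr2:73911327-73911446, minus strand: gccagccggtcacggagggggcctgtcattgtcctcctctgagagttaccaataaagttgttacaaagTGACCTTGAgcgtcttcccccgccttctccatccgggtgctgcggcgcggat

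The NRF1 site began 61 bases before the start of Cycs and 41 bases before that of Atp5g2. The ETS site began 11 bases before the start of Uqcrh and 39 bases before that of Atp5h, and the ERR site began 52 bases before the start of Atp5g3.

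DR1, the direct repeat of AGGTCA with a spacer of 1 base that PPARγ and RXR bind together, was found within 100 bases of the library 1 summit in 1 of the 63 regions of these genes (1.59%), beside 0.0643% of all 20233 regions. That region lay in an intron of Ndufs8, which encodes an iron-sulfur subunit of complex I. The line below gives 43 bases of mm10 with DR1 in capitals, on the minus strand, which is the strand of Ndufs8. For comparison, the other lines show an AP-1 site (TGACTCA, on either strand) in the strongest region of the set, upstream of Atp5l, and PU.1 sites (GAGGAAGT, on either strand) in a distant region of Uqcrfs1 and an intronic region of Cox5a, all as the plus strand. PU.1 is the ETS factor that macrophages depend on.

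Ndufs8, chr19:3912390-3912432, minus strand: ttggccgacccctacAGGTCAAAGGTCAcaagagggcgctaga
Atp5l, chr9:44921153-44921189, plus strand: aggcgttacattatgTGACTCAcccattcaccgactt
Uqcrfs1, chr13:30577125-30577162, plus strand: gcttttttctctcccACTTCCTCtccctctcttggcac
Cox5a, chr9:57526363-57526400, plus strand: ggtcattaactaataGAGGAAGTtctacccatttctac

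The region with DR1 was among the weakest of the data. It ranked 18458 of 20233 by the lower of its percentiles of fold enrichment in the libraries, with 3.12-fold enrichment in library 1 and 3.77-fold in library 2. Its centre was 543 bp downstream of the Ndufs8 start. The end of DR1 nearest to the library 1 summit was 33 bases from it. The library 2 summit lay 300 bp from the library 1 summit, on the side away from DR1.

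The share of OXPHOS genes with a PPARγ region at the promoter was larger than that of all genes. A consensus region covered a TSS of 31 of the 97 genes (32.0%, 95% Wilson interval 23.5 to 41.8%), where 15.7% of all protein-coding genes had such a region. A region lay within 3 kb of a TSS, whichever gene it was nearest to, for 39 genes (40.2%, 31.0 to 50.2%), beside 25.5% of all genes. When each region was credited to the gene with the nearest TSS, 42 genes had at least 1 region (43.3%, 33.9 to 53.2%), beside 31.6% of all genes. This last direction turned when the summits of the libraries had to lie at most 100 bp apart, with 21 genes (21.6%) beside 24.2% of all genes. The intervals cover counting error over genes only, and neighbouring genes can share a region. Among the 88 genes without assembly and supercomplex factors, 28 had a region over a TSS, 35 had a region within 3 kb and 38 were the nearest gene of a region.

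**Figure D1:**
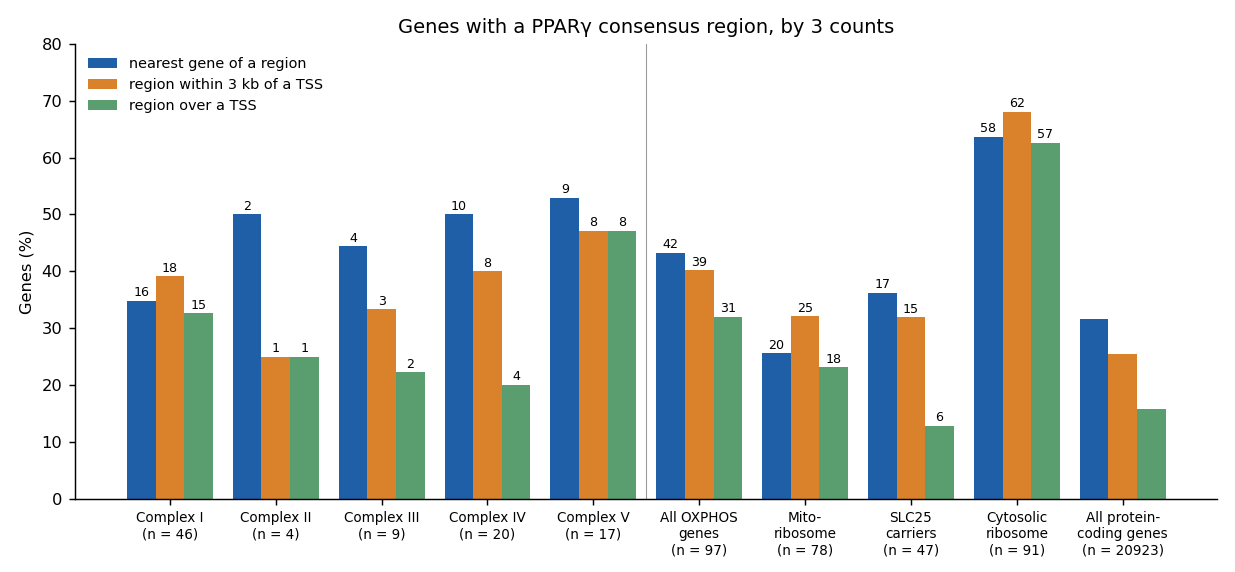
Share of genes (%, vertical axis, from 0) that are the nearest gene of a PPARγ consensus region, have a region within 3 kb of a TSS or have a region over a TSS, for the OXPHOS genes by complex, for all 97 of them (with Cycs), and for other gene groups. Numbers over the bars count genes, and 31 of 97 OXPHOS genes had a region over a TSS beside 15.7% of all genes.

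The regions of OXPHOS genes were few per gene and close to the start site. The 42 genes held 63 regions, and 32 of them (76.2%) held a single region, beside 45.4% of all genes with a region. The median distance from the region centre to the TSS was 541 bp for the 63 regions and 8465 bp for all regions. Of the 63 regions, 26 covered the TSS (41.3%, beside 15.1% of all regions), 16 more had their centre within 3 kb and 21 lay farther away. Their widths ran from 170 to 2098 bp with a median of 595 bp, and the median over all regions was 626 bp.

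By rank among all consensus regions, most of these regions were of middling or low strength. Against all peaks of a library, the best regions had a median percentile of 90.6 in library 1 and 64.7 in library 2. Over all genes with a region these medians were 91 and 74.5. In each gene's best region, the median fold enrichment over input was 8.15 in library 1 and 5.63 in library 2, beside 8.29 and 6.19 over the best regions of all 6615 genes with a region. The median rank of the 42 best regions was 9788 of 20233, and that of all genes' best regions was 6159. Genes with more regions have more chances of a strong one, so the closest regions were also compared, whose medians were 7.41 and 5.21 for the OXPHOS genes and 7.11 and 5.35 for all genes. Fold enrichment takes stepwise values in the lists, so 5.07 in library 2 was shared by regions of Atp5b, Atp5h, Cox6c, Cox8a and Cox4i1, and neighbouring ranks often rest on equal values.

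**Figure D2:**
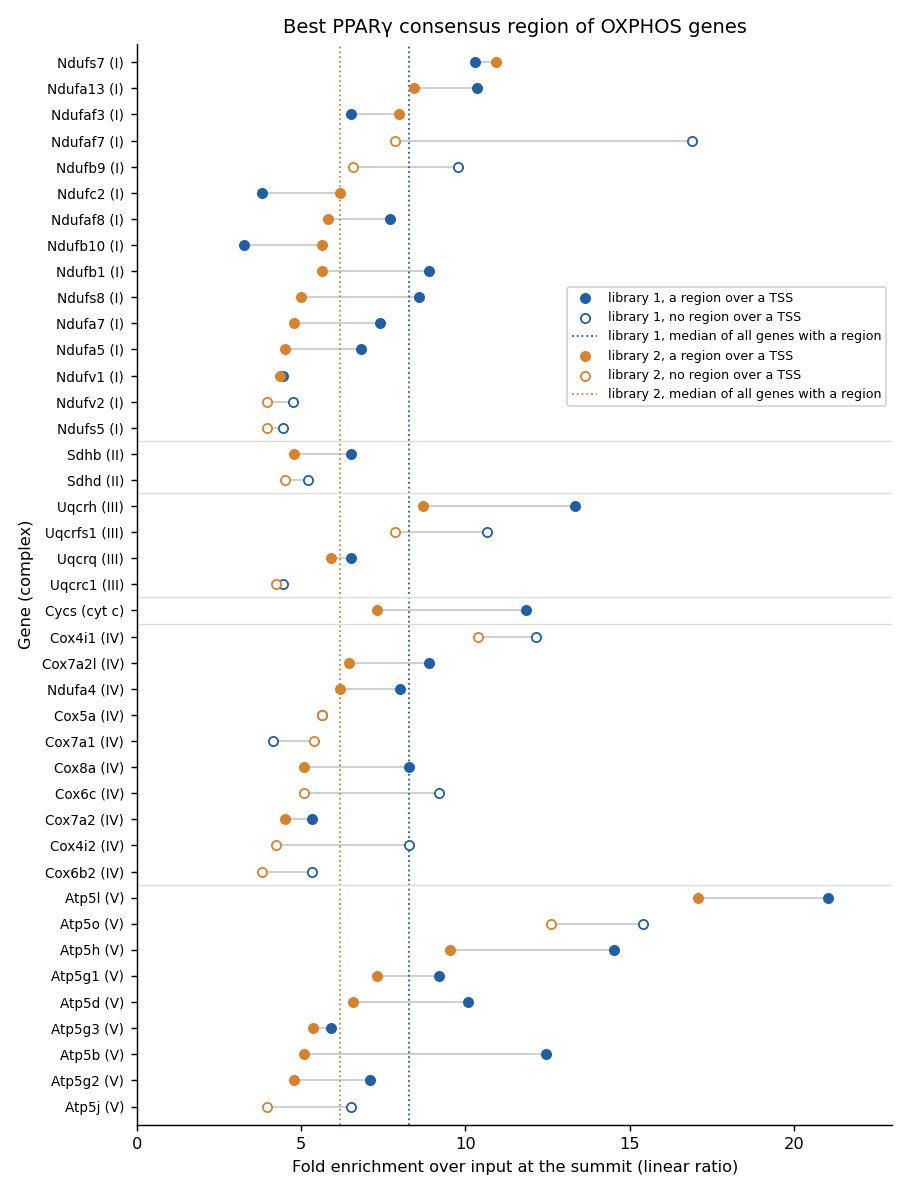
Fold enrichment over input (linear ratio, horizontal axis, from 0) of the best consensus region of 41 of the 42 OXPHOS genes with a region, in library 1 (blue) and library 2 (orange), ordered by complex. Filled points are genes with a region over a TSS, dotted lines are the medians over all genes with a region (8.29 and 6.19), and Atp5l lies highest in both libraries with 21.03 and 17.1.

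Complex I has 46 genes in this set, counting assembly factors, and a region covered a TSS of 15 of them (32.6%, 20.9 to 47%, beside 15.7% of all genes). Among its core subunits, which carry the electrons, Ndufs1, Ndufs7, Ndufs8 and Ndufv1 had a region over a TSS, Ndufv2 had a region within 3 kb, and Ndufs3 had neither.

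Ndufs7, which holds the last iron-sulfur cluster before ubiquinone, had the best ranked region of the complex. Its fold enrichment was 10.3 in library 1 and 10.9 in library 2 at chr10:80248524-80249768, rank 1075 of all regions, with summits 384 and 76 bp upstream of the TSS. It was high in both libraries.

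The regions of other core subunits were weaker. Ndufs8 had a region over the TSS with 8.59-fold enrichment in library 1 and 5.01-fold in library 2, and Ndufv1, which binds FMN and oxidizes NADH, had 4.44-fold and 4.35-fold. Ndufv2, the partner of Ndufv1, had 4.74-fold and 3.96-fold enrichment in a region centred 440 bp upstream. Ndufs3 had a peak in library 1 alone, of 5.33-fold, 140 bp downstream of its TSS. These core subunits ranged from high in both libraries to a peak in 1 library.

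The accessory subunits of complex I surround the core and are needed for its assembly and stability. A region covered a TSS of 8 of 31 (25.8%, 13.7 to 43.2%, beside 15.7% of all genes). These were Ndufa2, Ndufa5, Ndufa7, Ndufa13, Ndufb1, Ndufb5, Ndufb10 and Ndufc2. Ndufa13, also known as GRIM-19, was the strongest, with 10.4-fold enrichment in library 1 and 8.42-fold in library 2 at chr8:69901451-69902182, which ranked 2084, and it had 2 further, weaker regions. Ndufa5 had 6.81-fold and 4.52-fold enrichment over its TSS, and Ndufa7 had 7.41-fold and 4.79-fold.

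In Ndufb10 and Ndufc2 the region was below the median peak in library 1 and above it in library 2. Ndufb10 had 3.26-fold enrichment in library 1 and 5.63-fold in library 2, and Ndufc2 had 3.82-fold and 6.19-fold. Ndufs5 had a region centred 240 bp upstream with 4.44-fold and 3.96-fold enrichment, which did not reach the TSS. The region of Ndufb9 lay 52457 bp downstream in an intron of Mtss1, with 9.77-fold and 6.58-fold enrichment, and was credited to Ndufb9 by distance alone.

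Among the 8 Ndufaf assembly factors, 3 had regions (37.5%, 13.7 to 69.4%, beside 31.6% of all genes). Ndufaf3 had a region over its TSS at chr9:108566885-108568233, rank 4076, with 6.52-fold enrichment in library 1 and 7.98-fold in library 2. The library summits in the Ndufaf3 region lay 674 bp apart. Ndufaf7, a protein methyltransferase, had a region 2133 bp downstream in its own intron at chr17:78938910-78939625, rank 2623, with 16.9-fold and 7.87-fold enrichment. Ndufaf8 had a region over the start sites of both Ndufaf8 and Tepsin, with 7.70-fold and 5.83-fold. All of these values lay above the median peak of their library.

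Complex II, succinate dehydrogenase, has 4 nuclear genes and no mitochondrial subunit. Sdhb, its iron-sulfur subunit, had a region over the TSS with 6.52-fold enrichment in library 1 and 4.79-fold in library 2. Sdha, the flavoprotein that oxidizes succinate, had only a weak peak of 3.85-fold in library 1, 692 bp upstream. The membrane anchors Sdhc and Sdhd had peaks of both libraries within 3 kb that did not overlap, so neither counted as a region there. In Sdhc these were 7.11-fold in library 1 and 4.79-fold in library 2. The region credited to Sdhd lay 10739 bp downstream with 5.22-fold and 4.52-fold enrichment.

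In complex III, which hands electrons to cytochrome c, 4 of 9 genes had regions (44.4%, 18.9 to 73.3%, beside 31.6% of all genes). A region covered a TSS of 2 (22.2%, 6.32 to 54.7%, beside 15.7%), and both intervals held the share of all genes. Uqcrh, the hinge protein that binds cytochrome c1, had 13.3-fold enrichment in library 1 and 8.70-fold in library 2 at chr4:116074226-116075485, rank 1811. This region covered the start sites of both Uqcrh and Lrrc41 and holds the ETS site printed above. Uqcrq had 6.52-fold and 5.91-fold enrichment over its TSS, and Uqcrc1, a non-catalytic core protein, had 4.44-fold and 4.24-fold in a region centred 489 bp upstream. Uqcrh thus stood highest among the promoter regions of the complex in both libraries.

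The catalytic nuclear subunits of complex III had no region at their promoters. Cyc1, cytochrome c1, had a library 1 peak of 3.85-fold at 214 bp upstream and none in library 2 within 3 kb. Uqcrfs1, the Rieske iron-sulfur protein, had a library 1 peak of 5.92-fold within 3 kb and 5 consensus regions between 30289 and 37372 bp upstream. The strongest of these, at chr13:30576270-30578367, had 10.7-fold enrichment in library 1 and 7.87-fold in library 2 and ranked 2575. The 5 regions form a group in intergenic sequence whose next nearest gene, Dusp22, is 77371 bp or more away.

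Cycs, the somatic cytochrome c that also triggers apoptosome formation when released, had a region over its TSS. It lay at chr6:50566502-50567275, rank 3493, with 11.8-fold enrichment in library 1 and 7.31-fold in library 2. The library 1 summit was 73 bp upstream of the TSS, and the NRF1 site printed above lay between that summit and the TSS. A weaker region lay 1294 bp upstream with 6.03-fold and 4.52-fold enrichment.

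Complex IV, cytochrome c oxidase, has its catalytic subunits encoded in mitochondrial DNA, and its nuclear genes include tissue isoforms. Ndufa4 is counted here, since its protein is now placed in complex IV. Of 20 genes, 10 were the nearest gene of a region (50%, 29.9 to 70.1%, beside 31.6% of all genes). A region lay within 3 kb for 8 (40%, 21.9 to 61.3%, beside 25.5%). The 4 with a region over a TSS were Cox7a2, Cox7a2l, Cox8a and Ndufa4 (20%, 8.07 to 41.6%, beside 15.7%). Each interval held the share of all genes. Cox7a2l, which joins complexes III and IV into supercomplexes, had 8.89-fold enrichment in library 1 and 6.47-fold in library 2. Cox8a had 8.29-fold and 5.07-fold, Ndufa4 had 7.998-fold and 6.19-fold in a region shared with Phf14, and Cox7a2 had 5.33-fold and 4.52-fold. Cox7a2 was the weakest of these in both libraries.

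Cox4i1, the common form of subunit 4, was the nearest gene of 6 regions, the most in the set. Apart from the intronic region closest to its promoter, these lay 17654 to 33833 bp downstream and were credited to it by distance alone. The strongest, at chr8:120685066-120686881, had 12.1-fold enrichment in library 1 and 10.4-fold in library 2, ranked 774 and lay 17654 bp downstream in intergenic sequence. The region closest to its promoter was intronic, 647 bp downstream, with 7.41-fold and 4.69-fold enrichment. Cox5a had 3 intronic regions between 1024 and 4936 bp downstream, of which the best ranked had 5.63-fold enrichment in both libraries. No region covered the TSS of Cox4i1 or Cox5a.

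The region of Cox6c lay 180911 bp away in an intron of Vps13b, and its values were 9.18-fold and 5.07-fold. Of 8 isoforms known from muscle, testis, hypoxia or other settings, 3 were the nearest gene of a region (37.5%, beside 31.6% of all genes). None had a region over a TSS, beside 15.7% of all genes. The testis isoform Cox6b2 had 5.33-fold and 3.82-fold enrichment 1223 bp downstream, and the muscle isoform Cox7a1 had 4.15-fold and 5.39-fold in a region centred 176 bp upstream. The region of Cox4i2, an isoform of hypoxic tissue and lung, lay 35077 bp downstream in an intron of Bcl2l1. Cox7b2, Cox8b and Cox8c had no peak of either library within 3 kb.

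The best ranked region of the set was that of a complex V gene, Atp5l. Of its 17 genes, 9 were the nearest gene of a region (52.9%, 31 to 73.8%, beside 31.6% of all genes). A region covered a TSS of 8 (47.1%, 26.2 to 69.0%, beside 15.7%). Atp5l, subunit g of the membrane part, had 21.03-fold enrichment in library 1 and 17.1-fold in library 2 at chr9:44920589-44921802, with −log10 q-values of 71.2 and 47.2. It ranked 42 of all 20233 regions, and the next OXPHOS region, credited to Atp5o, ranked 271.

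In the F1 part, which carries the catalytic sites, Atp5b (the β subunit) had 12.4-fold enrichment in library 1 and 5.07-fold in library 2 over its TSS. Atp5d (δ) had 10.1-fold and 6.59-fold, and Atp5a1 (α) had 7.11-fold and 6.47-fold in a region over its TSS that was nearest to Haus1. The library summits in the Atp5d region lay 566 bp apart. Atp5c1 (γ) had peaks of both libraries that did not overlap, of 6.22-fold and 4.79-fold, and Atp5e (ε) had 3.85-fold in library 1 alone. The α and β subunits, which form the catalytic sites, thus both had a region over the TSS.

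The c-ring is the rotor that protons turn, and its mature subunit is the same protein from Atp5g1, Atp5g2 and Atp5g3. All of these genes had a region over the TSS. Atp5g1 had 9.18-fold enrichment in library 1 and 7.31-fold in library 2 at chr11:96075601-96076541, rank 3306. Atp5g2 had 7.11-fold and 4.79-fold, and Atp5g3 had 5.92-fold and 5.35-fold. Atp5g1 stood highest of these in both libraries, and Atp5g2 and Atp5g3 changed places between the libraries.

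Of the stalk subunits, Atp5h (subunit d) had 3 regions. The strongest lay at chr11:115412531-115414159, rank 1105, 6574 bp downstream of the gene's start, with 14.5-fold enrichment in library 1 and 9.54-fold in library 2. The region over its TSS, shared with Kctd2 and holding the ETS site printed above, had 6.81-fold and 5.07-fold. Regions credited to Atp5o (OSCP) and Atp5j (coupling factor 6) lay in introns of other genes. That of Atp5o ranked 271, with 15.4-fold and 12.6-fold enrichment at chr16:91848910-91849537, 82406 bp downstream in an intron of Itsn1. That of Atp5j lay 164767 bp upstream in an intron of App with 6.52-fold and 3.96-fold. Atp5j had a library 1 peak of 9.18-fold at its promoter and no library 2 peak within 3 kb. Gabpa starts within 1 kb of Atp5j on the opposite strand.

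Several OXPHOS promoters are shared with a neighbour, which decides to which gene a region is credited. An opposite-strand gene starts within 1 kb of 30 of the 97 genes (30.9%), beside 1860 of all 20923 genes (8.89%). In 5 cases a region over the TSS of an OXPHOS gene was nearest to the neighbour, and these were Atp5a1 with Haus1, Ndufa2 with Ik, Ndufb1 with Cpsf2, Ndufb5 with Mrpl47 and Ndufs1 with Eef1b2. For Ndufs1, the iron-sulfur subunit at the entry of complex I, the peaks were 9.48-fold in library 1 and 7.59-fold in library 2, at 157 and 159 bp upstream. Those of Ndufb5 were 9.77-fold and 4.24-fold. Ndufb1 also had a region of its own, 541 bp downstream in its intron, with 8.89-fold and 5.63-fold enrichment. Among the 30 genes with such a neighbour 12 had a region over a TSS (40.0%), and among all genes with one the share was 36.6%. Among the 67 without, 19 had a region over a TSS (28.4%), beside 13.6% of all genes without.

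Within 3 kb of a TSS and by the nearest gene, the consensus counts were close to those of library 2. Over a TSS the consensus counted 31 genes and peaks of library 2 alone 19 (19.6%, beside 11.1% of all genes). A region joins overlapping peaks of both libraries, so it can reach a TSS that the library 2 peak does not. In library 1, 89 of the 97 genes had a peak within 3 kb of a TSS (beside 48.3% of all genes) and 82 were the nearest gene of a peak (beside 60.6%). In library 2, 43 had a peak within 3 kb (beside 27.5%) and 45 were the nearest gene of a peak (beside 34.9%). Within 3 kb, 46 genes had a peak in library 1 alone, none in library 2 alone, 4 in both without overlap and 8 in neither. The 8 were Cox4i2, Cox7b2, Cox8b, Cox8c, Ndufa1, Ndufab1, Ndufaf5 and Ndufb4c.

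The library 1 peaks without a partner were weaker. Over the 39 genes with a region within 3 kb, the strongest library 1 peak there had a median fold enrichment of 7.998 (3.82 to 21.03). Over the 50 genes with a library 1 peak and no region, it was 5.04 (2.96 to 9.18). Of those 50 summits, 34 lay within 500 bp of the TSS, so they too were promoter peaks for the most part. Among the strongest were Atp5j with 9.18-fold and Ndufb3, an accessory subunit of complex I, with 8.89-fold.

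**Figure D3:**
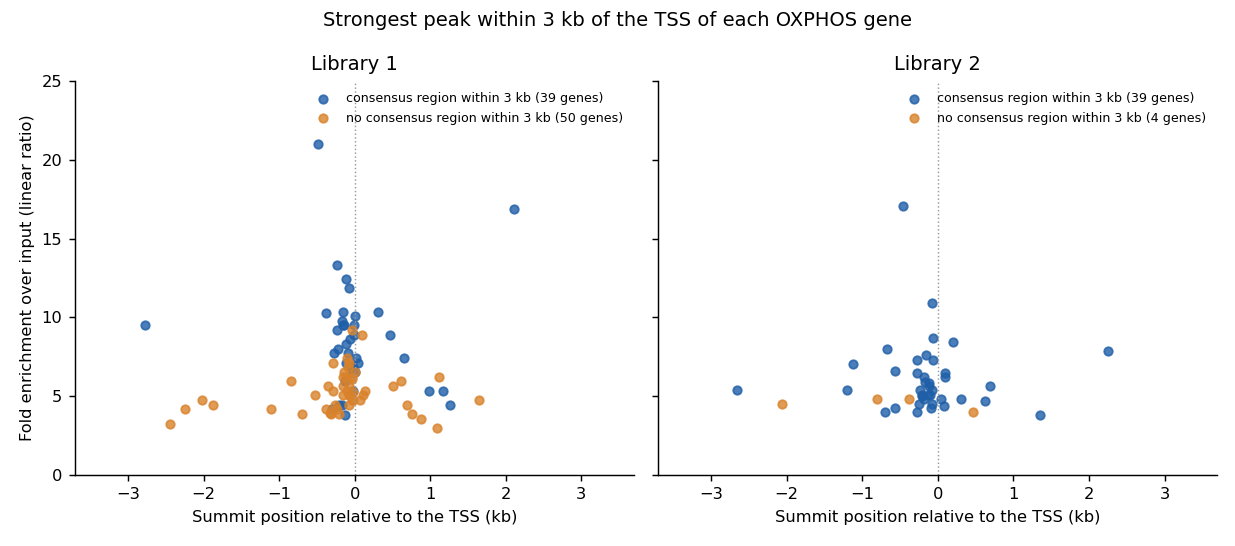
Fold enrichment over input (linear ratio, vertical axis, from 0) and summit position relative to the TSS (kb, horizontal axis, negative is upstream) of the strongest peak within 3 kb of each OXPHOS gene, in library 1 (left) and library 2 (right). Blue points are the 39 genes with a consensus region within 3 kb and orange points the others, of which 50 had a peak in library 1 and 4 in library 2.

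The promoters of OXPHOS genes are mostly rich in CpG, so the shares were also taken among CpG-rich promoters. The ratio of observed to expected CpG was at least 0.6 in 70 of 83 promoters of 300 bases (84.3%), beside 49.2% of all 20418 promoters in the RefSeq table. Among the 65 OXPHOS genes with such a promoter, 23 had a region over a TSS (35.4%, 24.9 to 47.5%), beside 24.5% of all genes with one. By the nearest gene the shares were 47.7% (36.0 to 59.6%) and 44.2%, and within 3 kb 43.1% (31.8 to 55.2%) and 39.3%. Within CpG-rich promoters the OXPHOS interval held the share of all genes by the nearest gene and within 3 kb, and lay just above it for a region over a TSS. Among the 13 OXPHOS genes with a ratio under 0.6, 3 had a region over a TSS (23.1%, 8.18 to 50.3%), beside 7.32% of all such genes. Of these 13, 5 had a region within 3 kb (38.5%, 17.7 to 64.5%), beside 11.7%, and 5 were the nearest gene of a region, beside 18.4%. The part of CpG content in these shares was not tested.

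OXPHOS genes also lie close to other genes. The stretch of genome that is nearest to their start sites had a median length of 26.1 kb, beside 48.8 kb for all genes. Among genes with a stretch no longer than that OXPHOS median, 23 of 49 OXPHOS genes (46.9%) were the nearest gene of a region, beside 25.3% of all such genes, and with a longer stretch the shares were 39.6 and 34.1%. The 3 genes on chromosome X, where 4.32% of all genes had a region over a TSS, had none.

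Motif matches in the 300-base promoters were counted on both strands over the 83 promoters, from 78 OXPHOS genes, in the RefSeq table. The NRF1 site CGCATGCG was in 12 (14.5%, 8.47 to 23.6%), beside 2.60% of all promoters, and the YY1 site AAGATGGC in 11 (13.3%, 7.56 to 22.2%), beside 3.11%. The ERR site TCAAGGTCA, which contains AGGTCA, was in those of Atp5g3 and Sdhd (2.41%), beside 0.338%. The ETS site CCGGAAGT was in 5 (6.02%), beside 5.32%, and the PU.1 site GAGGAAGT, which shares GGAAGT with it, in 3 (3.61%), beside 3.20%. The SP site GGGCGG was in 37 (44.6%, beside 47.7%), the CCAAT box in 36 (43.4%, beside 38.4%), the AP-1 site in 6 (7.23%, beside 4.74%) and the CRE site TGACGTCA in 5 (6.02%, beside 2.31%). The C/EBP site TTGCGCAA was in none, beside 0.23% of all promoters. Among the motifs of this paragraph, those of NRF1, YY1, ERR and CRE had a 95% Wilson interval above the share of all promoters, and the intervals of the others held it. The ERR and CRE intervals rest on 2 and 5 promoters. The NRF1 and CRE sites contain CpG, and motif shares were not taken among CpG-rich promoters alone. The part of CpG content in them was not tested.

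The promoters with an NRF1 site belonged to Atp5g2, Atp5j, Atp5k, Atp5l, Cox6a1, Cycs, Ndufa8, Ndufa11, Ndufaf4, Ndufaf5, Uqcr11 and Uqcrc1. The site was in 3 of 29 promoters of genes with a region over a TSS (10.3%) and in 9 of 54 of the others (16.7%). The receptor site AGGTCA was in 18 of 83 promoters (21.7%, 14.2 to 31.7%), beside 14.3% of all. DR1 was in no promoter of the set (0 of 83, up to 4.42%), with exact letters or with 1 mismatch, beside 0.049% and 0.47% of all promoters.

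**Figure D4:**
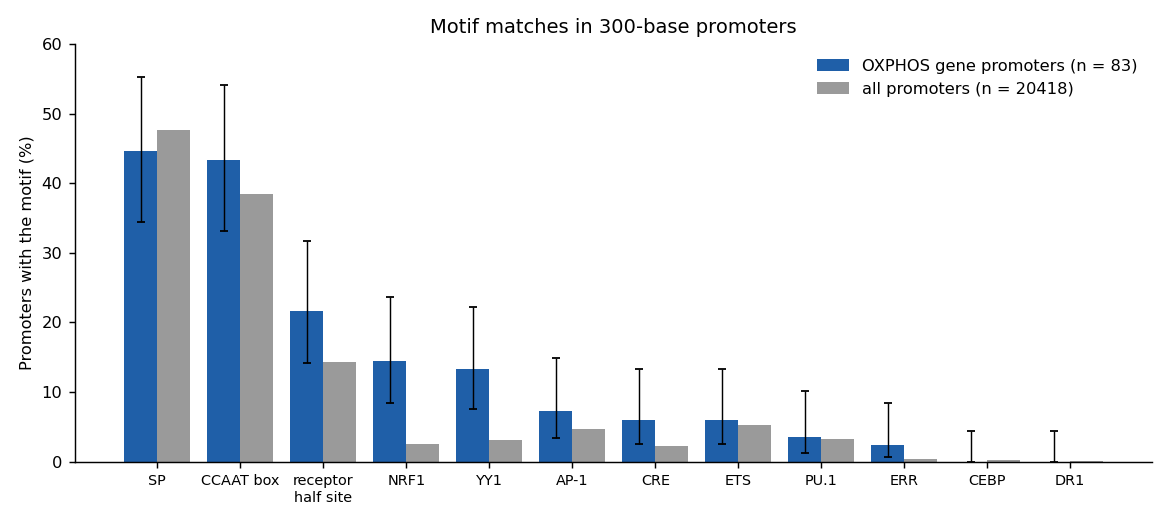
Share of promoters (%, vertical axis, from 0) that hold each motif on either strand, in 83 promoters of OXPHOS genes (blue, with 95% Wilson intervals) and in all 20418 promoters (grey). NRF1 and YY1 sites stood at 14.5 and 13.3% in OXPHOS genes beside 2.60 and 3.11% in all.

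Within 100 bases of the library 1 summits of the 63 regions, AGGTCA was in 11 (17.5%, beside 14.9% of all regions), the AP-1 site in 5 (7.94%, beside 7.23%) and the PU.1 site in 3 (4.76%, beside 6.83%). DR1 with at most 1 mismatch in its 12 fixed letters was still in the Ndufs8 region alone (1.59%, 0.281 to 8.46%), beside 0.786% of all regions. The summits of OXPHOS regions over the TSS held the NRF1 site in 2 of 26 (7.69%), those of Cycs and Atp5g2, beside 1.77% of all regions over the TSS. A match describes letters and not binding, and where no match was found only these letters were absent from the window.

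Other genes of the pathway were taken from lists. Of 55 assembly factors of complexes I to V, the Ndufaf genes included, 22 were the nearest gene of a region (40%, 28.1 to 53.2%, beside 31.6% of all genes). A region covered a TSS of 18 (32.7%, 21.8 to 45.9%, beside 15.7%). Factors of complex IV with a region over a TSS were Cox14, Cox17, Cox18, Cox19, Cox20, Coa4, Coa5, Cmc2 and Pet117. Of these, a pair was chosen for its values after they were seen. Cox19, a copper-handling factor, had 8.89-fold enrichment in library 1 and 10.1-fold in library 2 over its TSS, and Cox14 had 9.18-fold and 8.42-fold.

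Of 25 regulators of mitochondrial genes, 11 were the nearest gene of a region (44%, 26.7 to 62.9%, beside 31.6% of all genes). A region covered a TSS of 6 (24%, 11.5 to 43.4%, beside 15.7%), and both intervals held the share of all genes. Esrra, which encodes ERRα, had a region over its TSS with 10.4-fold enrichment in library 1 and 7.31-fold in library 2. Nrf1 had 2 regions and none over a TSS, the best 61.7 kb upstream with 11.0-fold and 10.4-fold enrichment. Yy1 had 5 regions, the best 27.8 kb upstream with 15.7-fold and 10.7-fold, and Ppargc1b, the coactivator PGC-1β, had 4, the best 1.55 kb upstream with 8.59-fold and 5.07-fold. Ppargc1a, Gabpa and Tfam, the packaging factor of mitochondrial DNA, were not the nearest gene of any region. Gabpa starts within 1 kb of Atp5j, to which the library 1 peak at that promoter was credited. Of these 7 genes Esrra alone had a region over a TSS.

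The gene groups most like the OXPHOS genes had shares with a region over a TSS below and above theirs. Over all genes this share was 15.7%. Of 78 mitochondrial ribosomal protein genes, 18 had a region over a TSS (23.1%, 15.1 to 33.6%), and of 47 SLC25 carriers of the inner membrane 6 had (12.8%, 5.98 to 25.2%). Of 91 cytosolic ribosomal protein genes 57 had (62.6%, 52.4 to 71.9%). The interval of the OXPHOS genes, 23.5 to 41.8%, overlapped those of the mitochondrial ribosome and the carriers and not that of the cytosolic ribosome. No test of these differences was made.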

How the data were processed

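PPARγ HT-ChIPmentation of AMs gave 2 ChIP and 2 input libraries. The authors' notes name MACS3, Bowtie2, cutadapt, SAMtools, CASAVA and bcl2fastq 2.20.0.422, with mm10 as the genome. They called peaks separately per library, with input as control and a q limit of 0.05. The deposited peak lists hold, as the authors' caller wrote them, positions, a score, the fold enrichment over input (a linear ratio), −log10 p-values and q-values, and the summit offset. The inputs were not analysed here. A list with fewer peaks misses weak sites, and the consensus can hold no more regions than the shorter list has peaks.

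Peaks overlapping by at least 1 bp were merged, and regions with peaks of both libraries were kept and credited to the gene with the nearest curated RefSeq TSS (GRCm38.p6, chromosomes 1 to 19 and X). Regions were ranked by the lower of their percentiles of fold enrichment in the libraries, and a gene's best region is its best ranked. Promoters run from 250 bases before to 50 after the start. Shares have 95% Wilson intervals, and no test was run. Counts were moved if they changed by more than 1.5 times. Genes were named as follows: every gene with a region, values and positions for the 12 best ranked, core subunits, 7 regulators (Ppargc1a, Ppargc1b, Nrf1, Gabpa, Esrra, Yy1, Tfam), and genes whose TSS lies under a neighbour's region. A gene that belongs to the set and is counted in its totals is not reported here by name. The genes and lists were chosen with earlier results of these data known. Alternatives were stricter peaks, other overlap rules, each library alone, other gene sets, annotation and motif windows. DR1 with 1 mismatch was added after the data were seen. The steps were tested on simulated data. Python 3.11.15, pandas 2.3.3, NumPy 2.4.6, SciPy 1.17.1 and pysam 0.24.0 were used.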

Additional observations from a re-analysis of the deposited data

How the results depend on the processing

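The counts of OXPHOS genes changed with the library and with the rule for a shared region. With 1 library alone, 45 to 82 genes were the nearest gene of a peak, 19 to 59 had a peak over a TSS and 43 to 89 had one within 3 kb, the lower number in library 2 each time. For all genes the nearest-gene shares were 34.9% in library 2 and 60.6% in library 1, and the shares over a TSS were 11.1 and 26%. Where both libraries had to reach a fold enrichment of 5, 25 genes were the nearest gene of a region (25.8%, beside 22.7% of all genes). A region then lay within 3 kb for 24 genes (24.7%, beside 17.3%). With summits at most 100 bp apart, 21 genes were the nearest gene (21.6% of 97, below the 24.2% of all genes). By that rule 15 had a region over a TSS (15.5%, beside 9.05% of all genes) and 23 had a region within 3 kb (23.7%, beside 17.7%). So by the nearest gene the OXPHOS share was above that of all genes with the default overlap and below it with close summits, and the cause was not tested.

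Around library 1 summits the NRF1 site was in 4.76%, the YY1 site in 1.59% and the SP site GGGCGG in 14.3% of OXPHOS regions, beside 0.42, 1.35 and 10.6% of all regions. In the shorter promoter window the SP site was in 33.7%, the AP-1 site in 2.41% and the CCAAT box in 28.9% of OXPHOS promoters, beside 39.6, 2.30 and 24.5% of all promoters. Of the alternative values 42 stayed within bounds and 15 did not, where the bounds were 1.5 times for a count of genes, the 95% interval for a motif share and the spread over regions for a median. Those that stayed include a q of 0.001, a reciprocal overlap of 50%, a shortened library 1 and GENCODE transcripts. As percentiles within a library, the best regions had medians of 90.6 and 64.7, beside 91.0 and 74.5 over all genes with a region. No paired analysis was possible because the shared numbers link each ChIP library to its input, which enters through the authors' peak calling, and no test compares groups. The peak lists hold no read counts and sequencing depth was not used here, so the part of depth in weak or absent library 2 peaks was not tested.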
